A study of Mus musculus with 4 samples.

Results

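The 5 vascular connexin genes Gja1, Gja4, Gja5, Gjc1 and Gjb2 were examined in a list of genomic sites bound by PRDM6, a member of the PR domain family of zinc finger proteins. A gene counted as bound where the annotation of the list assigned a peak to its symbol. By that rule 3 of the 5 genes had a peak and they shared 5 of the 13977 peaks. Among all protein-coding genes the share with a peak was 19.7%, and among those of 10 kb or more it was 26.4%. Gja1 had 1, Gja5 had 2 and Gjc1 had 2, whereas Gja4 and Gjb2 had none. None of the 5 peaks passed the limit of agreement between replicates given below, which 3.33% of all peaks did. The rule used gene names and no measured value.

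The peaks came from ChIP-seq of cultured mouse outflow tract smooth muscle cells (SMCs). Per the study's methods, these cells were isolated from the aortic arch and ductus arteriosus of Prdm6 fl/fl embryos late in gestation. In all groups a lentivirus made them overexpress FLAG-tagged PRDM6, and an anti-FLAG antibody precipitated the tagged protein rather than the endogenous one. The 4 libraries were 2 of PRDM6 ChIP and 2 of Input, and Input, the chromatin before precipitation, entered only through the authors' peak calls. The study describes the immunoprecipitations both as taken from the same sample and as independent, so the spread between them may be technical. Since the list gives them no name, the replicates are referred to by their order in it, as first-listed and second-listed. A peak list holds no expression values, so the identity of the cells and the expression of the connexins could not be checked in it.

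Connexins are the subunits of gap junctions. A ring of connexins forms a hemichannel, and hemichannels of neighbouring cells dock into a channel through which ions and small metabolites pass. In the arterial wall Cx43 (Gja1) and Cx45 (Gjc1) are the connexins usually found in SMCs, Cx40 (Gja5) and Cx37 (Gja4) are best known from the endothelium, and Cx40 is also abundant in the atria and the conduction system of the heart. Cx26 (Gjb2) is best known from the inner ear and other epithelia.

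The sequences that lie under the higher peaks are shown first, because the positions of their sites are referred to throughout. All are on mm10, read 5′ to 3′ on the strand of the gene in lower case, and capitals mark a match to the AP-1 motif (TGACTCA or its reverse complement TGAGTCA). The Gja1 promoter is chr10:56377050-56377299 on the plus strand, the stretch of the RefSeq promoter (GRCm38.p6) that lies before the first exon and within the Gja1 peak. The Gja5 window is chr3:97025280-97025480 on the plus strand and the Gjc1 window is chr11:102810367-102810567 on the minus strand. Each is the 201 bases centred on the summit, and both lie outside annotated exons.
Gja1 promoter: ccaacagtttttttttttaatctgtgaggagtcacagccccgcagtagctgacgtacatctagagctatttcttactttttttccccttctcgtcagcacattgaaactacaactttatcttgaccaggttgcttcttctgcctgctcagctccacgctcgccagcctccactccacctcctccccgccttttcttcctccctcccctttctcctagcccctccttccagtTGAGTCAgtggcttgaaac
Gja5 upstream summit: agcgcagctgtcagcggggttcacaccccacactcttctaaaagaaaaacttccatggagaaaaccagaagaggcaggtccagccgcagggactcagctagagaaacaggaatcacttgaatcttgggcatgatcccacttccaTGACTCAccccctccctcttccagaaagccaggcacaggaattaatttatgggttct
Gjc1 intronic summit: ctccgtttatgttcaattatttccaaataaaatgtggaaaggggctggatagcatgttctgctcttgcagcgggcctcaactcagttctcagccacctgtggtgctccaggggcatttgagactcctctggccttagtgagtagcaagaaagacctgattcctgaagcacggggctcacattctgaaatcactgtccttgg
The Gja1 and Gja5 sequences each held 1 AP-1 match and the Gjc1 window held none of the motifs searched.

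Gja1 encodes Cx43, the main connexin of many SMCs and of the working ventricle. Its gene spans chr10:56377330-56402513 on the plus strand. The peak, at chr10:56377031-56379609, covered the first exons of both basic transcripts, which begin at 56377330 and 56379088 and are 5′ UTR. The −log10 p-value of MACS2, which measures how far the pileup of fragments stands above the local background, was 7.71 in the first-listed replicate and 12.8 in the second-listed one. The second value lay above those of 93.1% of all peaks in that replicate, and the first above 59.2%. Both replicates put their summit in the first exon, 2 bp apart, against a median gap of 121 bp over all peaks. The matched summit was 112 bp downstream of the start site. At 2579 bp the peak was wider than 99.6% of all peaks. The calls of the replicates were 2527 and 2147 bp wide and shared 2095 bp. The AP-1 match of the promoter lay within both calls, 158 bp from the matched summit.

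Gjc1 encodes Cx45, the connexin of the early heart tube and of developing vessel walls. The gene spans chr11:102799579-102819700 on the minus strand, with 3 annotated start sites. Its stronger peak, at chr11:102810314-102810970, lay in intron 1 of the main transcript with the summit 8712 bp downstream of that start. The −log10 p-values were 6.92 and 7.42 in the first-listed and second-listed replicates. They exceeded 48.7% and 58.7% of all peaks in the respective replicate, so both lay near the middle of the list. Among matched values, which take the smaller of both replicates, the peak exceeded 73.1%. The summits were 49 bp apart, although the second-listed replicate called only 153 bp where the first-listed one called 657 bp.

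The other Gjc1 peak, at chr11:102817449-102818292, was also in intron 1 and ended 887 bp inside the gene from the main start. Its −log10 p-values were 6.15 in the first-listed and 5.10 in the second-listed replicate, above 36.4% and 22.3% of all peaks. Here the replicates called the summit 370 bp apart, a wider gap than at 85.3% of all peaks. The calls were 842 and 206 bp wide and shared 204 bp. Thus the narrow call of the second-listed replicate lay at the edge nearest the start site and the summit of the first-listed replicate lay outside it.

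Gja5 encodes Cx40. The gene spans chr3:96904693-97077416 on the plus strand because of a long transcript whose start lies far upstream, while the main transcript begins at 97032416. The stronger Gja5 peak, at chr3:97024862-97025879, had its summit 7036 bp upstream of the main start, in intron 2 of the long transcript. It had the highest matched value of the 5 connexin peaks. Its −log10 p-value was 9.37 in the first-listed and 12.8 in the second-listed replicate, above 75.3% and 93.1% of all peaks in the respective replicate. The summits were 27 bp apart and the calls, 897 and 941 bp wide, shared 820 bp. The AP-1 match shown above lay 47 bp from the matched summit and 33 and 60 bp from the summits of the first-listed and second-listed replicates.

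The weaker Gja5 peak, at chr3:97052209-97053072, lay in the 3′ UTR in exon 2 of the main transcript. Its −log10 p-values were 5.42 and 5.67, above 23.9% of all peaks in the first-listed and 31.3% in the second-listed replicate. The replicate summits were 376 bp apart. In the long transcript the same bases are intronic.

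**Figure D1:**
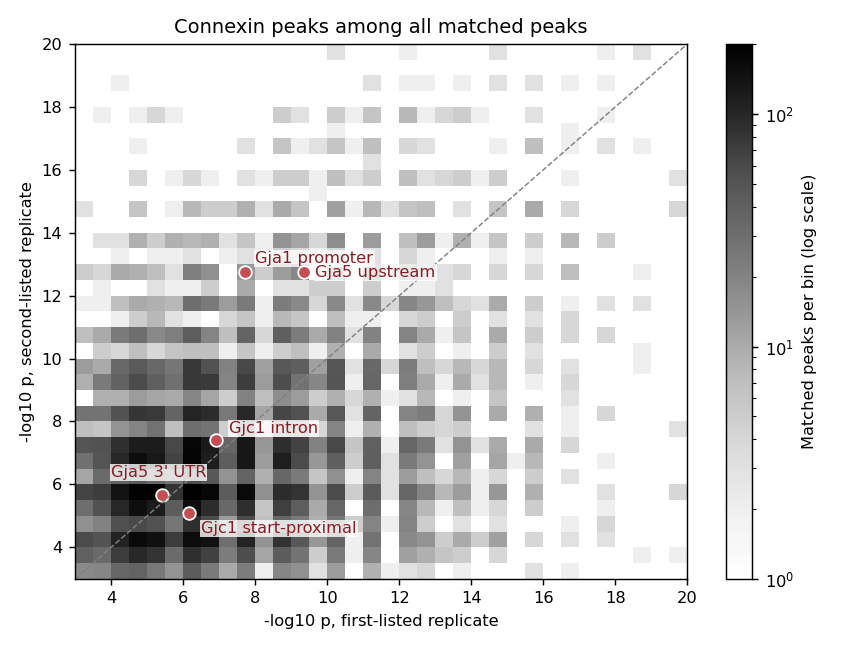
Each of the 5 connexin peaks (red) is plotted by its −log10 p-value in the first-listed (x axis) and second-listed (y axis) replicate over the number of matched peaks per bin of 0.5 (grey, log scale), with a dashed line of equal values. The Gja1 promoter peak and the upstream Gja5 peak share a value of 12.8 in the second-listed replicate and lie above the line, while the Gjc1 peaks and the Gja5 3′ UTR peak lie among the densest bins, and 152 peaks outside the axes are not drawn.

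The p-values could be turned back into pileup heights where MACS2 had used its genome-wide background, which was 2.61 fragments in the first-listed and 2.39 in the second-listed replicate. For Gja1 the heights were 15 and 20 fragments, which is 5.74 and 8.38 times that background. The upstream Gja5 peak reached 17 and 20 fragments, 6.50 and 8.38 times the background. For the intronic Gjc1 peak both heights were 14 fragments, and for the start-proximal one they were 13 and 11. At the 3′ UTR of Gja5 the height was 12 fragments in the first-listed replicate, and the value of the second-listed one could not be converted. Where they could be converted, the connexin peaks rested on 11 to 20 fragments at the summit, beside a median of 14 and 13 over the convertible peaks of the 2 replicates.

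Agreement between replicates was summarised in the list by the irreproducible discovery rate (IDR), where a low global IDR means that a peak ranked high in both. None of the 5 connexin peaks reached a global IDR of 0.05, which 465 of the 13977 peaks (3.33%) did. The global IDR was 0.141 for the upstream Gja5 peak, 0.282 for Gja1 and 0.389 for the intronic Gjc1 peak. It was 0.759 for the start-proximal Gjc1 peak and the Gja5 3′ UTR peak. The last 2 carried the lowest score of the list, as 41.4% of all peaks did. The order of the 3 stronger peaks by IDR was also their order by matched −log10 p, and Gja5 and Gja1 had the same value in the second-listed replicate. Both measures derive from the same replicate calls, so the shared order is not separate evidence. Differences between these peaks were not tested, since the replicates may be technical. The median matched −log10 p of the 5 peaks was 6.92, beside a median of 5.53 and an upper quartile of 6.92 over all peaks. In the first-listed replicate alone the median of the connexin peaks, 6.92, equalled that of all peaks, and in the second-listed one it was 7.42 beside 6.61.

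**Figure D2:**
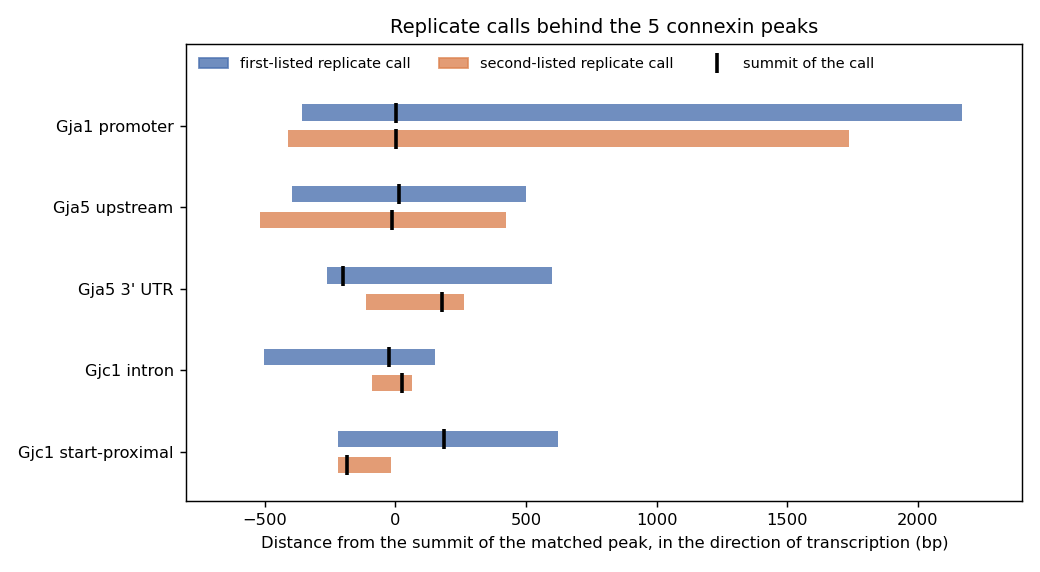
Bars show the interval that each replicate called at the 5 connexin peaks and black ticks its summit, by distance in bp from the matched summit in the direction of transcription. The summits nearly coincide at the Gja1 promoter (2 bp), the upstream Gja5 peak (27 bp) and the Gjc1 intron (49 bp) and stand apart at the Gjc1 start-proximal (370 bp) and Gja5 3′ UTR (376 bp) peaks.

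The 3 genes with a peak were also the 3 longest of the 5, with spans of 25184 bp (Gja1), 172724 bp (Gja5) and 20122 bp (Gjc1). Gja4 spans 2619 bp and Gjb2 spans 6103 bp. Among all protein-coding genes 19.7% had an assigned peak, that is 26.4% of genes of 10 kb or more and 7.46% of shorter genes. The connexin count of 3 of 5 thus divides into 3 of 3 genes of 10 kb or more and 0 of 2 shorter genes, and the part of gene length in it was not tested. Counted by position, 3 of 5 genes had a peak within 100 kb of a start site, where 44.0% of protein-coding genes did. Gja1 and Gjc1 had one within 3 kb, where 7.64% of protein-coding genes did.

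Gja4 encodes Cx37, which pairs with Cx40 in arterial endothelium. It lies at chr4:127311421-127314039 on the minus strand. No peak lay within 250 kb of its start, and the nearest one was 941463 bp away. A peak lay at that distance or nearer for 91.3% of protein-coding genes. Chromosome 4 held 3.77 peaks per Mb and 13.9% of its protein-coding genes had one.

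Gjb2 encodes Cx26 and lies at chr14:57098600-57104702 on the minus strand. The nearest peak was 212427 bp from its start, in intron 3 of Cryl1, and a second lay beside it in the same intron. Both had the lowest score, with −log10 p-values of 5.42 and 4.30 at the nearer and 4.28 and 3.68 at the farther one in the first-listed and second-listed replicates. For 64.5% of protein-coding genes a peak lay at that distance or nearer. The connexin genes on its flanks, Gja3 and Gjb6, had no peak, and the nearest lay 245421 and 183518 bp from their starts. Chromosome 14 held 4.67 peaks per Mb, between chromosome 4 and the chromosomes of Gjc1, Gja5 and Gja1 with 5.20, 6.29 and 7.31.

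**Figure D3:**
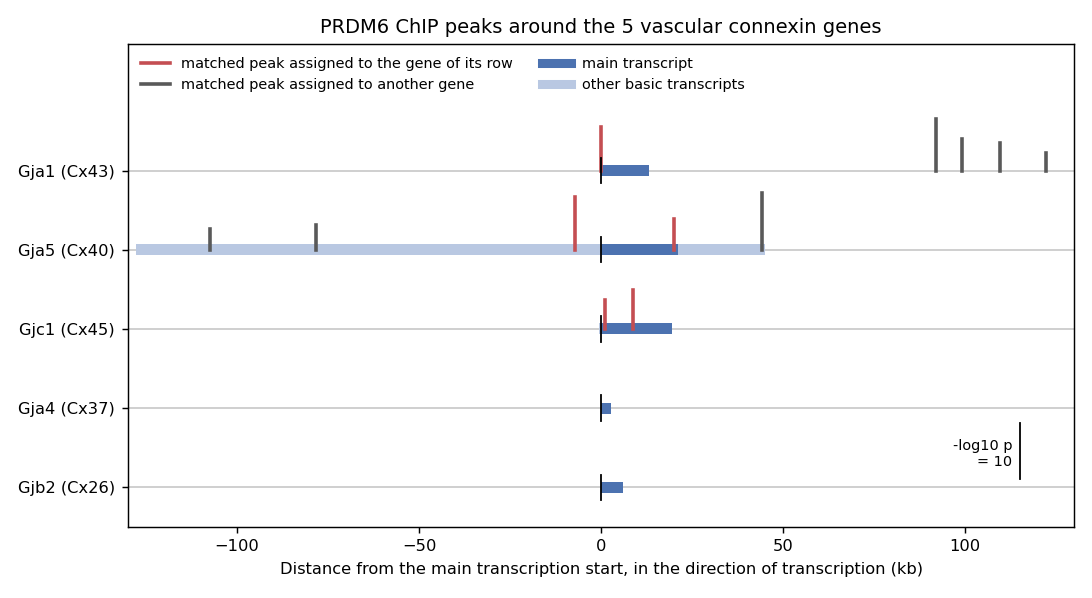
Vertical bars mark the summits of matched peaks by distance in kb from the main start site of each gene, with a height proportional to the matched −log10 p (scale bar, 10), in red where the peak was assigned to the gene and in grey where it was assigned to another gene. Boxes are the main (dark) and the other basic (light) transcripts. The rows of Gja4 and Gjb2 hold no peak in the stretch drawn, since their nearest peaks lie 941463 and 212427 bp from the start.

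In all, 10 peaks lay within 100 kb of a start site of the 5 genes, 5 of them assigned to these genes and 5 to others. At Gja1 the other 2 were assigned to Gm36595 and lay 91952 and 99008 bp downstream of the start. The nearer of these had −log10 p-values of 10.2 and 9.10, so in the first-listed replicate it was higher than the Gja1 peak and in the second-listed one lower. At Gja5 a peak at chr3:97076257-97077134 was assigned to 4930573H18Rik but lay in the 3′ UTR of the long Gja5 transcript, 44271 bp downstream of the main start. Its −log10 p-values were 11.1 and 9.98 and its global IDR was 0.115, lower than that of either peak assigned to Gja5. Around Gjc1 there was no peak but its own within 100 kb. The protein-coding genes next to the bound connexins, Tbc1d32 and Hsf2 at Gja1, Pdzk1 and Acp6 at Gja5, and Adam11 and Higd1b at Gjc1, had no assigned peak.

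Motifs were searched on both strands in the 201 bases around each summit. AP-1 was matched at 1 of the 5 connexin peaks, the upstream Gja5 one, and at 14.3% of all peaks. TEAD (AGGAATGC, AGGAATGT, GGGAATGC or GGGAATGT) was matched at 1 of the 5, the Gja5 3′ UTR peak, and at 7.45% of all peaks. TTTCAT or TTTCCT was present at 2 of the 5, Gja1 and the start-proximal Gjc1 peak, and at 43.1% of all peaks. The CArG box, which serum response factor binds in SMC genes, was present at 0 of the 5 and at 1.41% of all peaks. Over whole peaks, which differ in width, AP-1 was matched in 3 of the 5 connexin peaks and 34.3% of all peaks, and TEAD in 1 of the 5 and 19.2% of all peaks. TTTCAT or TTTCCT was present in all 5 and in 76.7% of all peaks, and the CArG box in 0 of the 5 and in 4.75%. The AP-1 and TEAD sites are set side by side with 10 bases on each flank, on the strand of the gene, with the match in capitals.
Gja1 AP-1 site, chr10:56377271-56377297: tccttccagtTGAGTCAgtggcttgaa
Gja5 AP-1 site, chr3:97025414-97025440: cccacttccaTGACTCAccccctccct
Gjc1 AP-1 site, chr11:102810862-102810888: ttcagggatgTGAGTCAccggcttgac
Gja5 TEAD site, chr3:97052509-97052536: ctttgttaacAGGAATGTccaaagtcac
Their distances from the matched summit were 158 bp at Gja1, 47 bp at Gja5 and 408 bp at Gjc1 for AP-1 and 52 bp for the TEAD site. The TEAD site lay 251 and 125 bp from the summits of the first-listed and second-listed replicates, so it was not within 100 bp of either replicate's own summit. The Gjc1 site lay inside the call of the first-listed replicate and outside that of the second-listed one. In the RefSeq promoters, which run from 250 bases before to 50 after a start, AP-1 was matched in 1 of the 4 connexin promoters found there, that of Gja1, and in 5.20% of 32851 promoters. TEAD and the CArG box were matched in none of the 4, against 4.23% and 1.63% of all promoters. TTTCAT or TTTCCT was matched in those of Gja4 and Gja5 and in 38.9% of all promoters. A match describes the letters only and does not show which protein was bound.

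Of 20 connexin and pannexin genes considered, 4 had a peak, a share close to the 19.7% of all protein-coding genes. Besides Gja1, Gja5 and Gjc1 this was Gjd4, with 2 peaks. The best peak of Gjd4 had −log10 p-values of 8.75 and 5.84. Of the 15 genes outside the vascular set, 1 had a peak (6.67%). By subfamily the count was 2 of 6 Gja genes, 0 of 4 Gjb genes, 1 of 3 Gjc genes and 1 of 3 Gjd genes, and Gje1 and the 3 pannexins, which form channels without docking, had none. Among those of 10 kb or more 3 of 7 had a peak, and among shorter ones 1 of 13, Gjd4. In matched −log10 p the upstream Gja5 peak was the strongest of these 7 peaks, followed by the Gja1 and the intronic Gjc1 peak. None of the 7 reached a global IDR of 0.05.

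**Figure D4:**
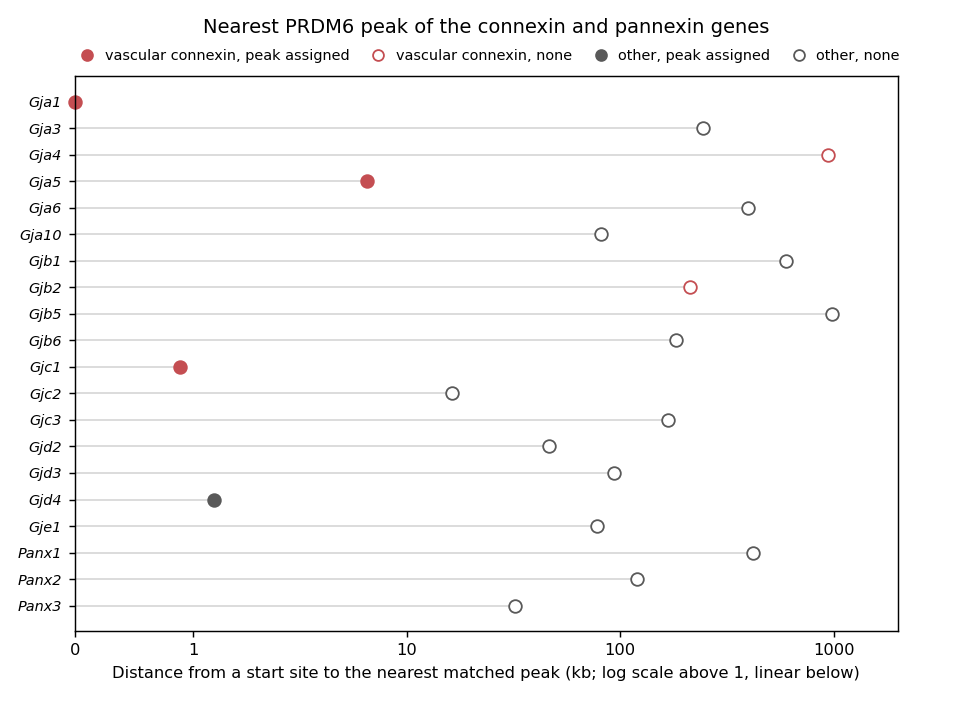
Points give the distance in kb from the start sites of each of 20 connexin and pannexin genes to the nearest matched peak, on a scale that is logarithmic above 1 and linear below, filled where a peak was assigned to the gene and red for the vascular set. Gja1 and Gjc1 have a peak at 0 and 887 bp, and Gja4 and Gjb5 stand at the far end, at 941463 and 985605 bp.

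Gap junction channels are assembled and turned over with the help of scaffold, adhesion, trafficking and signalling proteins. Of 11 genes for such partners of connexins 8 had a peak, with 29 peaks between them, beside 19.7% of all protein-coding genes. The scaffold gene Tjp1 (ZO-1) had 4 peaks, the best with −log10 p-values of 8.52 and 7.42. Cdh2, the gene for N-cadherin, had 8 with a best of 9.37 and 11.8, and Ctnnb1 (β-catenin) had 1. Cav1, the caveolin gene, and Nedd4, a ubiquitin ligase that acts on Cx43, had 6 each. The best Cav1 peak had 12.03 and 8.84 and the best Nedd4 peak 9.28 and 9.98. Cnst (consortin, a connexin trafficking receptor) had 2, and Prkca and Ccn3 had 1 each. Dbn1 (drebrin) and the kinase genes Src and Csnk1d had none. These genes are long, with a median span of 53400 bp beside 17400 bp over all protein-coding genes. Of the 10 that span 10 kb or more 7 had a peak, beside 26.4% of all protein-coding genes of that length. By the nearest start site instead of the deposited assignment the count was 4 of 11. The values above are those of the best peak per gene. Over the 29 peaks the median matched −log10 p was 5.1, beside 5.53 over all peaks. The peaks of Ctnnb1 and Ccn3 carried the lowest score of the list. None of the 29 peaks reached a global IDR of 0.05.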

How the data were processed

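Libraries were those of 2 PRDM6 ChIP and 2 Input samples. The authors aligned reads to mm10 with BWA, called peaks in each ChIP library against its input with MACS2, matched the replicates by IDR and annotated the matched list. Versions were not given in the sources used here. The deposited score is a scaled IDR that rises with agreement (540 at a global IDR of 0.05, 830 at 0.01). The deposited −log10 values are the p-values of each replicate, the smaller of both for the matched peak, and the IDR. The signal and q-value columns held a placeholder of -1 and were not used. In the annotation, each of the 13977 q-values equalled the second-listed −log10 p.

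From these files, peaks were taken by gene symbol, and distances were computed to start sites of basic GENCODE M21 transcripts. Annotated transcripts matched that release for 99.1% of peaks. A percentile is the share of all peaks with a lower value. Heights came from the Poisson background whose tails held the most p-values within 0.0002, which converted 58.3% and 63.5% of the values, and read depth per library is unknown. Motif search, heights and distances were tested on simulated data. No test was run, since 1 matched list of 1 condition gives no groups to compare. The members, gene lists and motifs were chosen with earlier results of these data known, and Gja5 is a gene that the study itself singled out. Named genes were the 5 connexins, the family and partner lists, the adjacent genes and any gene with a peak within 100 kb, and some of these genes and their results are not reported here. Alternatives were IDR limits of 0.05, 0.01 and 0.1, nearest start sites, distance limits, other windows and each replicate alone. Software was Python 3.11.15 with pandas 2.3.3, NumPy 2.4.6, matplotlib 3.10.9 and SciPy 1.17.1.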

Additional observations from a re-analysis of the deposited data

How the results depend on the processing

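A limit on the global IDR of 0.05 or 0.01 left 0 peaks at the vascular connexin genes, 0 connexin or pannexin genes and 0 partner genes with a peak, and the limit of 0.05 left 0 peaks within 100 kb of a start site. No connexin peak passed a limit of 0.1 either. With peaks given to the nearest start site the connexin counts stayed at 3 genes and 5 peaks and the partner count was 4 of 11, and the cause was not tested. Between the replicates taken alone, the median −log10 p of the connexin peaks ranged from 6.92 to 7.42. Within 50 kb of a start site there were 8 peaks and within 250 kb there were 22. AP-1 or TEAD was matched at 2 of the 5 peaks within 100 bp of the summit and at 1, the upstream Gja5 peak, within 50 bp. At the summit of either replicate alone it was also 1. The other alternatives moved no count by more than 1.5 times. No paired analysis was possible because the results come from no test and the list names the replicates only by order. Summit heights of 11 to 20 fragments limit the precision of each connexin peak.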

Other observations

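The peaks downstream of Gja1 went on beyond the distance described above. The non-coding gene Gm36595 was assigned 14 peaks, from 91.1 to 573 kb downstream of the Gja1 start, most of them annotated as distal intergenic. By number of peaks it ranked 43 of 5243 genes with a peak, a rank shared with others, as 54 genes had as many or more. The best had a matched −log10 p of 9.37, the median was 5.61, and 7 of the 14 carried the lowest score of the list. AP-1 was matched near the summit of 4 and TEAD of 1, beside 14.3% and 7.45% of all peaks. None reached a global IDR of 0.05.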
